A study of Homo sapiens with 18 samples.

Results

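DDIT4 and the genes of the core mTORC1 pathway were followed in K562, an established leukemia cell line with the BCR-ABL1 fusion. The 10 genes were DDIT4, TSC1, TSC2, RHEB, MTOR, RPTOR, MLST8, DEPTOR, AKT1S1 and RPS6KB1, taken by symbol from a table of 27781 genes. DDIT4 was selected on its lower level in these same knockdown libraries, so its levels are given as a description with no test. The other 9 genes were listed for their place in the pathway. Of the 10, 9 passed the filter on low counts, which left 15678 genes of the table for testing, and DEPTOR did not.

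Whole-transcriptome RNA-seq compared a pair of groups of K562 cells, both transfected with antisense gapmers, short oligonucleotides that recruit RNase H to the RNA they pair with. The knockdown group received gapmers against the backsplice junction of the circular RNA circPCMTD1, and the scrambled group received control gapmers. Cells of both groups were harvested at 48 hours. Each group had 3 biological replicates, each sequenced as 3 technical libraries, which gives 18 libraries over both groups. Nothing in the labels says whether the replicates came from separate cultures, so the p-values measure the spread between these samples, which may be technical.

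mTORC1 is a kinase complex that drives protein synthesis and cell growth when amino acids, energy and growth factors are at hand. Its kinase MTOR works with the scaffold RPTOR and the subunit MLST8, and DEPTOR and AKT1S1 (PRAS40) are inhibitory partners. RHEB, a small GTPase of the lysosomal surface, switches the complex on, and the TSC1-TSC2 complex switches RHEB off. DDIT4 (REDD1) is a stress-induced protein that lowers mTORC1 activity through TSC1-TSC2, and its gene is a known target of hypoxia-inducible factors, ATF4 and the glucocorticoid receptor. RNA-seq measures the transcripts of these genes, and neither their proteins nor the activity of the complex was measured.

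The libraries held 19118533 to 29432699 counts and the sums over technical libraries 63851576 to 76087774. PCMTD1, whose gene-level count adds circular and linear RNA, stood at 20.6 ± 1.13 CPM (counts scaled to a common library total) in scrambled and 12.3 ± 0.515 CPM in knockdown samples (SD, n = 3). All 8 erythroid and K562 markers examined were detected, with summed levels of 9991 to 10170 CPM in scrambled and 10360 to 11070 CPM in knockdown samples. Most of that sum was HBG1 and HBG2, and TAL1 was lower in knockdown samples, at 251 against 229 CPM, while the others were higher. The labels call the cells lymphoblasts, yet of 6 lymphoid markers MS4A1 was at 0 and only CD3D had a mean of at least 1 CPM, the 6 together holding 4.88 to 5.49 CPM in scrambled and 7.44 to 7.57 CPM in knockdown samples. Of 4 monocyte and granulocyte markers only LYZ had a mean of at least 1 CPM, and the 4 held 36.3 to 38.2 against 46.0 to 47.1 CPM. LYZ alone made that difference, at 36.4 against 46.0 CPM, and CD14, MPO and ELANE were lower in knockdown samples. Of 3 stromal and epithelial markers, EPCAM stood at 46.2 and 47.1 CPM, COL1A1 at 1.99 and 1.23 CPM, and KRT5 had almost no counts. The part of these marker differences in the results was not tested, and in bulk RNA fewer cells of a kind cannot be told apart from less RNA per cell.

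The sequence before the start of DDIT4 is shown because transcripts of its known inducers were measured too. Whether they act through this region was not tested. That of TSC2 is shown because, among members with a window, it alone held the letters of an ATF4 site. RefSeq (GRCh38.p14) gave windows of 300 bases, 250 before and 50 after a start site, for 7 of the 10 members. Capitals mark TGATGNAA (a composite ATF4-C/EBP element), ACGTG and GCGTG (hypoxia element cores) and CACGTG (the E-box, which contains ACGTG), searched on both strands. The 250 bases before each start are printed 5' to 3' on the plus strand, for DDIT4 from chr10:72273674-72273923 and for TSC2 from chr16:2047735-2047984.
DDIT4: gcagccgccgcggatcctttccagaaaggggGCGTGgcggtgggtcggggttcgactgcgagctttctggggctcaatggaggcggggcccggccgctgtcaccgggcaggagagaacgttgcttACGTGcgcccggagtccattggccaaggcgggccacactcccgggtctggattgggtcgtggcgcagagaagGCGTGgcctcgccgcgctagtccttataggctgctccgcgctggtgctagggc
TSC2: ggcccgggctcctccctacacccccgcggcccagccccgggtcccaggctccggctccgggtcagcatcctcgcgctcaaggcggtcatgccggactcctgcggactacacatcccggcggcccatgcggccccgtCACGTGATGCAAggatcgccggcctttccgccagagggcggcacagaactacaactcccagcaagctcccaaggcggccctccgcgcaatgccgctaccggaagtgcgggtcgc
The DDIT4 window held 1 ACGTG, beginning at position -125 from the start, and 3 GCGTG, at -219, -53 and 26, the last of them in the bases after the start and not printed. Over 35116 windows of the same length, ACGTG stood in 21.41% and GCGTG in 36.54%, so neither is rare. TGATGNAA, found in 3.62% of all windows, and CACGTG, found in 7.26%, were not among these 300 bases of DDIT4. TSC2 carried CACGTG at -114 and the overlapping TGATGCAA at -110 in the window printed. Its second RefSeq window, chr16:2047952-2048251, held neither and is not printed. A match is a run of letters and not a measured binding site, and no match says nothing beyond this window.

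DDIT4 was lower in every knockdown sample. Its summed levels were 159.9, 159.9 and 158 CPM in the 3 scrambled samples and 107, 108 and 99.3 CPM in the 3 knockdown samples. The scrambled samples lay close together and the knockdown samples further apart, with replicate 3 the lowest. Among single libraries, the scrambled group ran from 148.9 through a median of 160.7 to 166 CPM, and the knockdown group from 94.3 through 105 to 114 CPM. All 9 knockdown libraries were below all 9 scrambled libraries, a separation that 5.12% of all genes tested showed in either direction, and from which nothing is read here since the gene was chosen for it. The means were 159.3 ± 1.12 and 104.8 ± 4.77 CPM (SD, n = 3), a difference of -34.2%, with a log2 fold change of -0.60 (SE 0.032).

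Among the 10480 tested genes that averaged 5 CPM or more, DDIT4 had the 5th lowest log2 fold change, between IGF1 at -0.64 and TCN1 at -0.50. A low rank was given by the choice of DDIT4 for its fall, so it is a description only. Its fold change stayed between -0.628 and -0.564 over all processing alternatives tried. DDIT4 lies on the plus strand of chromosome 10 from 72273920 to 72276036 (GRCh38, GENCODE 29). Of its merged exon bases, 41.16% are shared with DDIT4-AS1 on the opposite strand. DDIT4-AS1 was not among the genes in the deposited counts, so no level of its own can be given. The strand setting of the counting is not given in the sources used here, so reads of the 2 genes cannot be told apart.

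**Figure D1:**
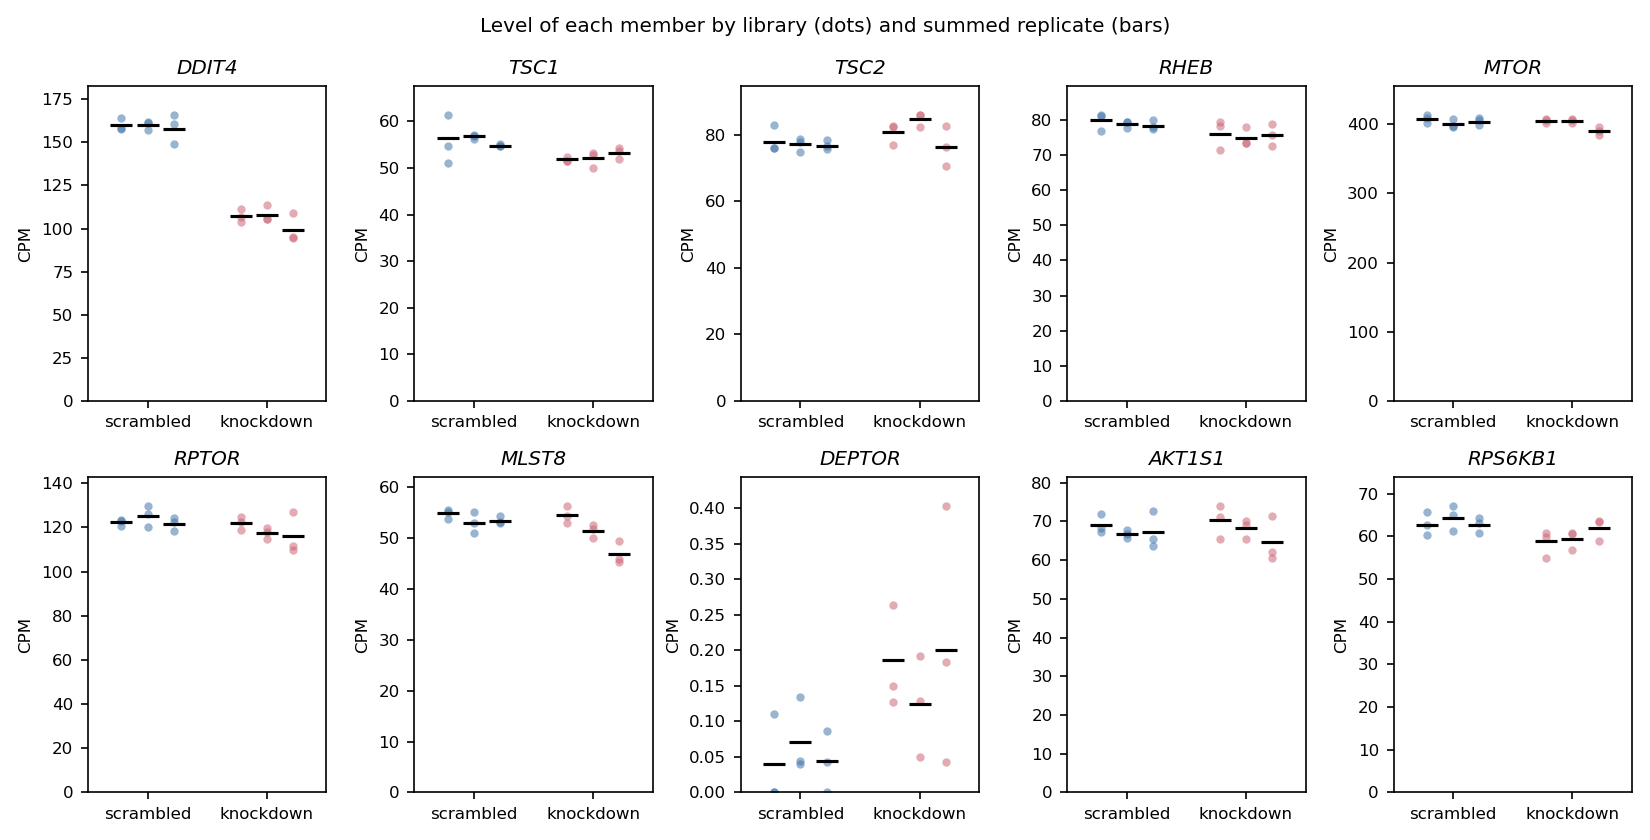
Level of each of the 10 genes in CPM (y axis, from 0, own scale per panel) in the scrambled and knockdown groups; dots are the 9 libraries of a group, set side by side by biological replicate, and black bars are the 3 summed replicates. DDIT4 is the panel in which the groups stand fully apart, at 148.9 CPM or more against 114 CPM or less, while the DEPTOR axis ends below 1 CPM.

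Of the 8 other tested members, 0 were raised and 1, TSC1, was lowered, by the quasi-likelihood test of edgeR with an adjusted p below 0.05. That is 12.5% lowered, against 7.49% of all genes tested called lowered and 11.1% called raised. At an unadjusted p below 0.05 the counts were 0 raised and 3 lowered, and DESeq2 called 0 raised and 1 lowered. The shares of all genes given here and below are at the adjusted threshold. No share was taken at the unadjusted one, so counts at that threshold cannot be set against them. Their log2 fold changes ran from -0.10 to 0.06 with a median of -0.06, 6 below 0 and 2 above it, where the median of all genes tested was 0.00 and the 5th and 95th percentiles were -0.28 and 0.42. The 3 scrambled and 3 knockdown values did not overlap for TSC1, RHEB and RPS6KB1, 37.5% of the 8, and did not overlap for 34.6% of all genes tested.

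Of the 2 main subunits of the GTPase-activating complex that DDIT4 acts through, 1 had its transcript called lowered. TSC1, the hamartin scaffold that stabilises TSC2, fell slightly. Its levels were 56.4, 56.8 and 54.8 CPM in scrambled and 51.9, 52.0 and 53.3 CPM in knockdown samples, so the groups did not overlap. The log2 fold change was -0.10 (SE 0.033, 95% interval -0.16 to -0.03, adjusted p = 0.0463). This call stands close to the threshold and was lost in 7 of 17 alternatives, with adjusted p from 0.000682 to 0.208. The 7 were upper-quartile scaling, no count filter, and leaving out scrambled replicate 1, 2 or 3 or knockdown replicate 1 or 2. Of its merged exon bases 1.98% are shared with GFI1B on the opposite strand, which went from 95.7 to 113 CPM (log2 fold change 0.24, adjusted p = 4.86e-06).

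TSC2, the tuberin subunit that carries the activity against RHEB, did not pass the test. It stood at 77.8, 77.1 and 76.6 CPM in scrambled samples and at 80.7, 84.7 and 76.3 CPM in knockdown samples. Knockdown replicates 1 and 2 lay above all scrambled samples and replicate 3 below them. The log2 fold change was 0.06 (SE 0.035, 95% interval -0.01 to 0.14, adjusted p = 0.245). It was called raised in 3 of 17 alternatives, at adjusted p = 0.000341 when knockdown libraries 3_2 and 3_3 were left out, 0.00164 without knockdown replicate 3 and 0.0381 with libraries summed by the second number of their names. PKD1 and NTHL1 overlap its exons on the opposite strand, by 3.96% and 2.05% of its merged exon bases.

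As a ratio of CPM per kb of the longest transcript, TSC1 to TSC2 was 0.520 to 0.536 in scrambled samples and 0.447 to 0.508 in knockdown samples, with no overlap. The ratio restates the TSC1 and TSC2 levels above and is no separate evidence. Among all genes tested, 34.6% had levels that did not overlap between the groups. That share is for levels of single genes, and none was taken for ratios. TBC1D7, the third subunit of the complex, rose from 37.7 ± 1.47 to 40.7 ± 1.13 CPM (SD, n = 3; log2 fold change 0.11, SE 0.038, adjusted p = 0.0486). That call was lost in 7 of 17 alternatives, with DESeq2, RLE scaling, a stricter count filter and 4 of the fits without 1 replicate, at adjusted p up to 0.29. DDIT4L, the paralog of DDIT4, was too low to be tested, and RHEBL1, the paralog of RHEB, was not called at a log2 fold change of -0.25 (adjusted p = 0.0935).

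RHEB, the GTPase that activates mTORC1, stood at 79.9, 78.8 and 78.4 CPM in scrambled and 76.1, 75.0 and 75.8 CPM in knockdown samples. The groups did not overlap, but the difference was small and did not pass the test. Its log2 fold change was -0.06 (SE 0.030, 95% interval from -0.13 to just under 0, adjusted p = 0.16). In 6 of 17 alternatives it was called lowered, at adjusted p from 0.00705, when knockdown libraries 3_2 and 3_3 were left out, to 0.0379 with libraries entered singly.

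For the kinase and its scaffold no difference passed the test. MTOR, the catalytic subunit, stood at 407.9, 400.1 and 404 CPM in scrambled and 405, 404.5 and 389.5 CPM in knockdown samples, and the ranges overlapped. Its log2 fold change of -0.02 (SE 0.025, 95% interval -0.07 to 0.04, adjusted p = 0.72) was called in 0 of 17 alternatives and had the smallest SE of the 9 tested members. The interval leaves room for a fall of 0.07 or a rise of 0.04 on the log2 scale. RPTOR, which recruits substrates to the kinase, stood at 122, 125 and 121 CPM against 122, 117 and 116 CPM. The values overlapped, and the log2 fold change was -0.05 (SE 0.030, 95% interval -0.12 to 0.01, adjusted p = 0.25), called lowered in 3 of 17 alternatives, among them the correction on GC content (adjusted p = 0.00511).

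MLST8, a subunit shared by both mTOR complexes, stood at 54.9, 53.0 and 53.5 CPM in scrambled and 54.5, 51.5 and 46.9 CPM in knockdown samples. Knockdown replicate 3 was the lowest value and replicate 1 lay within the scrambled range. The log2 fold change was -0.08 (SE 0.042, 95% interval -0.16 to 0.01, adjusted p = 0.223). It was called lowered in 4 of 17 alternatives, at adjusted p = 0.00177 with the GC correction, and BRICD5, on the opposite strand over 3.79% of its merged exon bases, fell from 4.07 to 3.24 CPM (adjusted p = 0.0104).

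Of the inhibitory partners inside the complex, AKT1S1 differed by less than the spread between replicates and DEPTOR had almost no counts. AKT1S1 stood at 69.0, 66.7 and 67.2 CPM in scrambled and 70.4, 68.3 and 64.7 CPM in knockdown samples. The knockdown values lay on both sides of the scrambled ones, and the log2 fold change was 0.00 (SE 0.035, 95% interval -0.07 to 0.08, adjusted p = 0.965), called in 0 of 17 alternatives. TBC1D17 shares 6.83% of its merged exon bases on the opposite strand.

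DEPTOR, which binds MTOR directly and restrains it, had 0 to 8 counts in a library. The summed counts were 3, 5 and 3 in scrambled and 13, 8 and 13 in knockdown samples, so every knockdown sample had more. The group counts of 11 and 34 correspond to 0.0516 and 0.171 CPM, a ratio of 3.32 with an exact 95% interval of 1.64 to 7.26 that covers counting error only. It did not pass the filter on low counts here. Without a count filter its adjusted p was 0.0221. The fits without 1 replicate admitted it only where knockdown replicates 1 and 3, the samples with most counts, were both kept, so it entered through the group where it was high and its calls there are no support for a difference.

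RPS6KB1, the S6 kinase that mTORC1 phosphorylates, stood at 62.8, 64.3 and 62.8 CPM in scrambled and 58.8, 59.5 and 61.9 CPM in knockdown samples. The groups did not overlap, with knockdown replicate 3 closest to the scrambled values. The log2 fold change of -0.07 (SE 0.033, 95% interval -0.14 to -0.01, adjusted p = 0.122) missed the threshold. It was called lowered in 6 of 17 alternatives, at adjusted p = 0.00131 when knockdown libraries 3_2 and 3_3 were left out and 0.00226 with the GC correction.

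**Figure D2:**
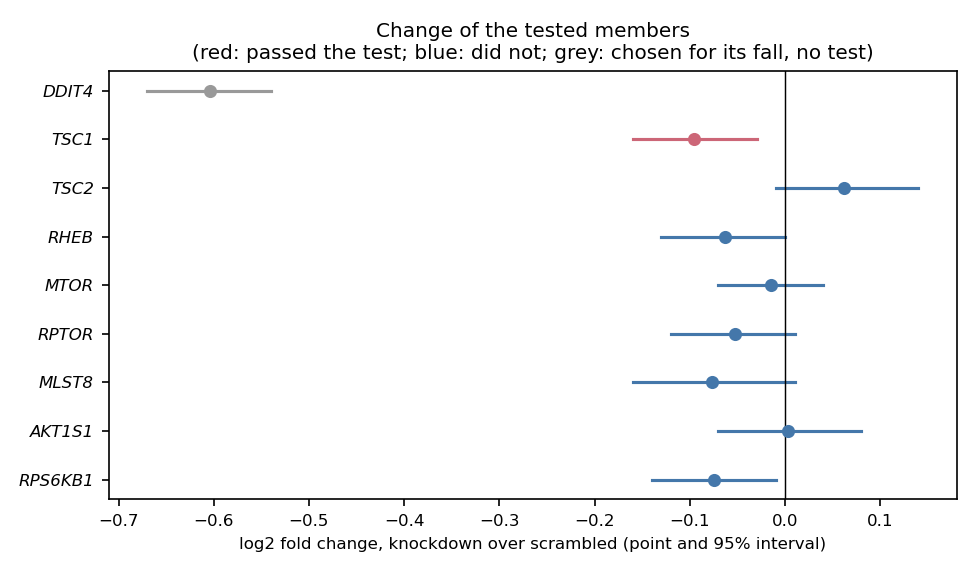
Log2 fold change of the 9 tested genes, knockdown over scrambled, with points for the fitted value and lines for the 95% interval; red passed the test, blue did not, and DDIT4 in grey carries no test because it was chosen for its fall. DDIT4 lies at -0.60 and the other 8 genes between -0.10 and 0.06.

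Levels per kb of the longest transcript allow the genes to be set against each other. In scrambled samples DDIT4 was the highest of the 10 at 91.1 ± 0.643 CPM per kb (SD, n = 3), then MTOR at 46.6 ± 0.451 and RHEB at 38.1 ± 0.382. MLST8 followed at 25.4 ± 0.462, RPTOR at 19.2 ± 0.309 and AKT1S1 at 18.6 ± 0.341, and the values of the latter 2 overlapped. TSC2 at 12.2 ± 0.0925, RPS6KB1 at 11.6 ± 0.160 and TSC1 at 6.42 ± 0.121 CPM per kb came next, and DEPTOR was last at 0.0201 ± 0.00652. Each neighbour in this order other than RPTOR and AKT1S1 was apart in all 3 samples.

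In knockdown samples DDIT4 remained the highest, at 60.0 ± 2.73 CPM per kb beside 46.1 ± 1.01 for MTOR. The per-kb ratio of DDIT4 to MTOR was 1.94 to 1.98 in scrambled and 1.27 to 1.33 in knockdown samples, and that of DDIT4 to TSC2 was 7.46 to 7.53 and 4.63 to 4.81. Both ratios restate the lower DDIT4 level and are no separate evidence. RPTOR to MTOR, which does not use DDIT4, was 0.406 to 0.424 and 0.393 to 0.408, with overlap. Dividing by the merged exons in place of the longest transcript placed RPS6KB1 above TSC2, at 8.23 and 3.93 CPM per kb in scrambled samples, and in knockdown samples left MLST8, RPTOR and AKT1S1 overlapping between 10.9 and 12.6 CPM per kb.

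**Figure D3:**
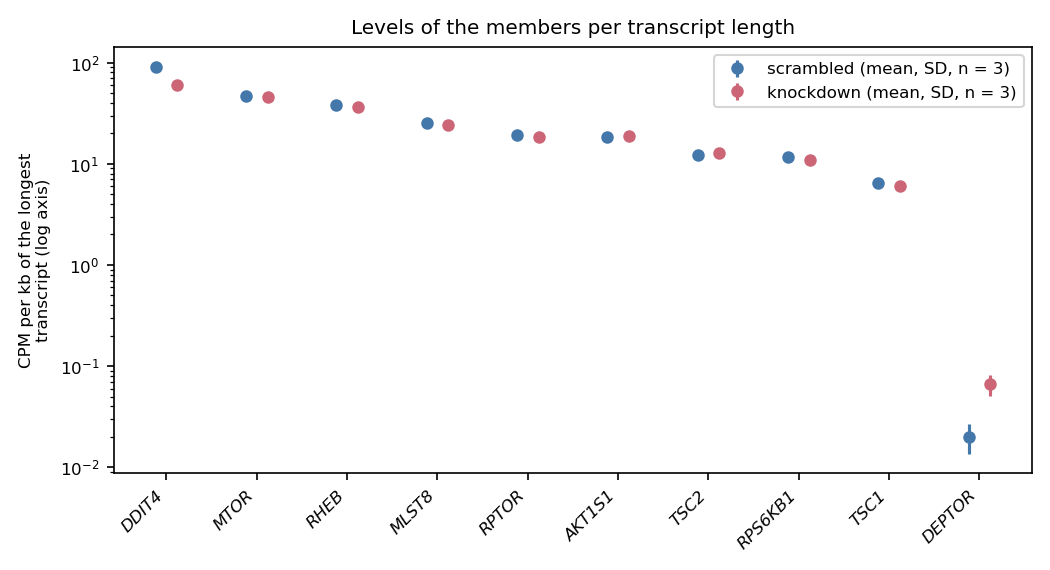
Level of the 10 genes in CPM per kb of the longest transcript (log axis), as the mean and SD of 3 summed samples in scrambled and knockdown cells. The genes are in order of the scrambled level, from DDIT4 at 91.1 to DEPTOR at 0.0201, and the pairs of points nearly coincide for MTOR and AKT1S1.

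Knockdown libraries 3_2 and 3_3 stood apart from the other 7 of their group, and their difference went with GC content among the members. On the log2 CPM scale their mean minus that of the other 7 knockdown libraries was 0.11 for RPS6KB1, whose longest transcript has 38.2% GC. It was 0.04 for RHEB at 48.0% GC and 0.06 for TSC1 at 48.5%. MTOR at 52.2% GC was -0.06, RPTOR at 59.8% was -0.13, TSC2 at 60.5% was -0.17, AKT1S1 at 60.4% was -0.18, DDIT4 at 58.1% was -0.19 and MLST8 at 64.5% was -0.20. The 3 members below the median GC of tested genes, 48.6%, were higher in these libraries and the 6 above it were lower. Both libraries belong to knockdown replicate 3, the replicate with the lowest MLST8, AKT1S1, TSC2, RPTOR, MTOR and DDIT4 of the knockdown group.

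**Figure D4:**
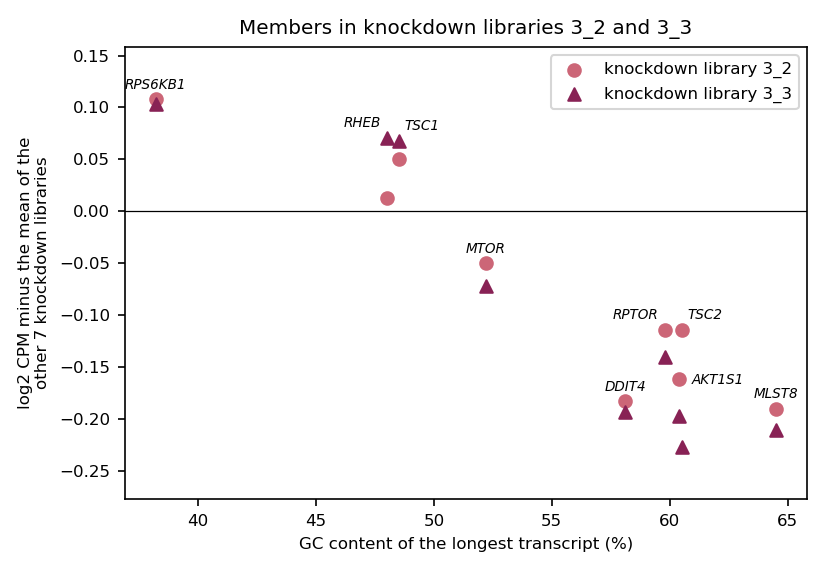
Deviation of knockdown libraries 3_2 (circles) and 3_3 (triangles) from the mean of the other 7 knockdown libraries, in log2 CPM, against the GC content of the longest transcript in percent, for the 9 tested genes. Values run from above 0 for RPS6KB1 at 38.2% GC to about -0.20 for MLST8 at 64.5%.

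Without these 2 libraries DDIT4 had a log2 fold change of -0.56, and with a correction on GC content -0.62. The count for the other 8 members moved more. Without the libraries 1 was raised (TSC2, 0.10) and 3 were lowered (TSC1, RHEB and RPS6KB1), where 16.5% of all genes were called raised and 15.5% lowered. With the GC correction 0 were raised and 5 lowered (TSC1, RHEB, RPTOR, MLST8 and RPS6KB1), where 14.8% of all genes were called raised and 16.7% lowered. In each of these fits the largest size among the 8 stayed at or below 0.11 on the log2 scale.

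The arms that feed mTORC1 were examined through lists of their genes. In the growth factor arm, 2 of 17 tested genes rose and 2 fell, 11.8% each, near the 11.1% raised and 7.49% lowered among all genes. The median log2 fold change was 0.01, and the lowered count was 1 to 4 over the alternatives. INSR, the insulin receptor, rose from 1.58 ± 0.159 to 2.47 ± 0.274 CPM (SD, n = 3; log2 fold change 0.64, adjusted p = 0.000566), and PIK3CD, a catalytic subunit of PI3 kinase, rose from 36.7 ± 0.215 to 42.0 ± 1.73 CPM (0.20, adjusted p = 0.000674). GRB10, an adaptor that is itself an mTORC1 substrate and restrains insulin signalling, fell from 194 ± 1.58 to 170.0 ± 1.93 CPM (-0.19, adjusted p = 2.49e-05). These 3 were called in all 17 alternatives. IGF1R, the IGF1 receptor, was the other lowered gene, from 25.0 ± 1.18 to 22.3 ± 0.312 CPM (-0.16, adjusted p = 0.0108). The kinases between them and TSC2 showed little difference, AKT1 at -0.01 (adjusted p = 0.915) and AKT2 at -0.04 (adjusted p = 0.317).

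In the energy arm of AMPK and LKB1, edgeR called 0 of 8 tested genes in either direction, where 11.1% of all genes were raised and 7.49% lowered. DESeq2 called 0, and 1 raised and 0 lowered had an unadjusted p below 0.05. There were 2 lowered without knockdown libraries 3_2 and 3_3, without knockdown replicate 3, summed by the second number and with the GC correction. More of all genes were lowered in these fits too, 15.5% without the 2 libraries and 16.7% with the GC correction. Lowered calls over all genes went from 1175 to 2280 without knockdown replicate 3 and to 2389 summed by the second number. The smallest p of the energy arm belonged to PRKAG2, a regulatory AMPK subunit, at 2.91 against 3.38 CPM (log2 fold change 0.22, adjusted p = 0.136). The amino acid arm had 5 of 30 tested genes raised and 5 lowered, 16.7% each against 11.1% and 7.49% of all genes, with a median of -0.04. SESN2, a leucine sensor and ATF4 target, fell from 81.3 ± 0.108 to 68.9 ± 2.82 CPM (-0.24, adjusted p = 2.54e-05). FLCN and FNIP1, which together form a GTPase-activating complex for the Rag GTPases, fell by 0.16 and 0.13 on the log2 scale (adjusted p = 0.00401 and 0.00352).

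Both counts of the amino acid arm moved with the samples used. The raised genes included CASTOR1, an arginine sensor, at 0.687 against 1.03 CPM. The others were CASTOR2 at 52.6 against 57.6 CPM, WDR24 at 36.3 against 39.4, SLC38A9 at 16.1 against 17.9 and BMT2 at 5.97 against 6.92. The list had 0 to 4 raised members when 1 replicate was left out and 1 in DESeq2. The lowered count was 3 to 8 without 1 replicate, 9 without knockdown libraries 3_2 and 3_3 (15.5% of all genes lowered) and 10 with the GC correction (16.7% of all genes lowered). Among mTORC2 and the TTT assembly factors, edgeR called 0 of 7 genes, where 11.1% of all genes were raised and 7.49% lowered. None had an unadjusted p below 0.05, and DESeq2 called 0. TELO2 of the TTT complex had the smallest p of that list (log2 fold change -0.08, adjusted p = 0.202), and with the GC correction it was called lowered at adjusted p = 0.00025.

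Downstream of the complex, 0 of 15 tested substrates and effectors were raised and 3 were lowered, where 11.1% and 7.49% of all genes were, with a median of -0.01. At an unadjusted p below 0.05, where no share of all genes was taken, there were 1 raised and 5 lowered. DESeq2 called 0 and 4. EIF4B, a translation initiation factor phosphorylated by S6 kinase, fell from 994 ± 8.36 to 940.1 ± 7.89 CPM (log2 fold change -0.08, adjusted p = 0.0115). LARP1, a repressor of transcripts with a terminal oligopyrimidine tract, fell from 912.7 ± 0.670 to 864 ± 26.7 CPM (-0.08, adjusted p = 0.0249), and POLDIP3, an S6 kinase partner, from 93.5 ± 3.31 to 86.8 ± 2.53 CPM (-0.11, adjusted p = 0.0267). The EIF4B call was lost without scrambled replicate 2 or 3 or knockdown replicate 2, that of LARP1 without any 1 scrambled replicate, and that of POLDIP3 without scrambled replicate 1 or 2. The lowered count was 0 to 6 when 1 replicate was left out. RPS6, EIF4EBP1 and ULK1, 3 widely used readouts of the pathway at the protein level, had log2 fold changes of 0.02, -0.01 and 0.00 in their transcripts (adjusted p = 0.68, 0.872 and 0.961).

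Of 15 tested regulators of DDIT4, 0 were raised and 5 lowered, where 11.1% and 7.49% of all genes were, with a median of -0.06. The lowered count was 4 to 8 when 1 replicate was left out and 8 without knockdown libraries 3_2 and 3_3 (15.5% of all genes lowered). DESeq2 called 0 and 5. At an unadjusted p below 0.05, where no share of all genes was taken, there were 0 raised and 7 lowered. ATF4, the transcription factor of the integrated stress response, stood at 309.9 to 316 CPM in scrambled and 248.8 to 258 CPM in knockdown samples and fell by 0.30 on the log2 scale (SE 0.025, adjusted p = 1.74e-08). EPAS1, which encodes HIF-2alpha, fell from 40.0 ± 1.82 to 30.0 ± 0.582 CPM (-0.41, SE 0.040, adjusted p = 1.51e-07). DDIT3 (CHOP) fell by 0.31 (adjusted p = 7.55e-06), and all 3 were called in 17 of 17 alternatives. CEBPB and TXNIP were the other 2 lowered genes, by 0.15 and 0.08 (adjusted p = 0.0329 and 0.0159).

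The 10 regulators that were not called had log2 fold changes from -0.17 to 0.05. HIF1A had a log2 fold change of -0.03 (95% interval -0.12 to 0.05, adjusted p = 0.621). NR3C1, the glucocorticoid receptor, was at -0.02 (-0.08 to 0.04, adjusted p = 0.674). DDB1, CUL4A and BTRC, parts of the ubiquitin ligase that degrades DDIT4 protein, stood at 0.03, -0.06 and -0.02, none of them called.

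Targets of these inducers were counted as well, as transcripts that share a known regulator with DDIT4. Of 10 tested ATF4 targets, 9 were lowered and 0 raised, 90% where 7.49% of all genes were lowered, with a median log2 fold change of -0.29. DESeq2 gave 9 and 0, 9 and 0 had an unadjusted p below 0.05, and the lowered count was 8 or 9 when 1 replicate was left out. ATF3 fell from 18.7 ± 0.362 to 13.7 ± 0.253 CPM (-0.46, adjusted p = 3.61e-07). ASNS, asparagine synthetase, fell from 178 ± 1.97 to 144 ± 7.21 CPM (-0.30, adjusted p = 6.3e-07), and PSAT1, of serine synthesis, from 88.0 ± 0.286 to 72.6 ± 1.51 CPM (-0.28, adjusted p = 1.34e-06). VLDLR, at 0.226 and 0.259 CPM, was the one member not called. Stress response genes were known to be lower in these libraries when the list was drawn up, so its count is not independent evidence, and DDIT3, CEBPB and SESN2 stand on 2 of the lists. The letters TGATGNAA stood in the windows of 3 of the 9 ATF4 targets with a RefSeq window, ASNS, ATF3 and CHAC1. A gene was counted if any of its windows held them, some having more than 1, whereas the 3.62% above is a share of single windows.

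Of 11 tested hypoxia targets, 0 were raised and 3 lowered (27.3%), where 11.1% and 7.49% of all genes were, with a median of -0.10. The lowered count was 1 to 5 when 1 replicate was left out. DESeq2 gave 0 and 3. At an unadjusted p below 0.05, where no share of all genes was taken, there were 0 raised and 7 lowered. VEGFA, the vascular growth factor, fell from 91.5 ± 2.91 to 81.7 ± 3.63 CPM (-0.16, adjusted p = 0.00248) and was called in 17 of 17 alternatives. P4HA1 fell by 0.12 and BNIP3 by 0.10 (adjusted p = 0.0255 and 0.0486), calls that were lost in 4 and 6 of 17 alternatives, when single replicates of either group were left out and, for BNIP3, with upper-quartile scaling. Among the 8 not called, ANKRD37 and NDRG1 had the lowest log2 fold changes, -0.32 and -0.24 (adjusted p = 0.059 and 0.0506), and SLC2A1 and PDK1 the values nearest 0, -0.01 and 0.00 (adjusted p = 0.794 and 0.977). The lowered count was 7 without knockdown libraries 3_2 and 3_3, where 15.5% of all genes were lowered, and 7 with the GC correction, where 16.7% were.

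Of 7 tested glucocorticoid targets, 1 was raised and 1 lowered, 14.3% each, near the 11.1% and 7.49% of all genes. FKBP5, the most abundant of them, rose from 161 ± 2.95 to 173 ± 1.42 CPM (0.11, adjusted p = 0.00768), a call lost without scrambled replicate 2 (adjusted p = 0.0892). SGK1 fell by 0.17 (adjusted p = 0.0441) with overlapping ranges, a call lost in 6 of 17 alternatives, DESeq2 among them. The other 5 were not called. TSC22D3 (GILZ), a classic target, stood at 1.61 and 1.78 CPM. Counted once each, 119 tested genes of all these lists gave 9 raised (7.56%, against 11.1% of all genes) and 25 lowered (21%, against 7.49%), with a median of -0.04. The ATF4 targets supplied 9 of the 25.

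**Figure D5:**
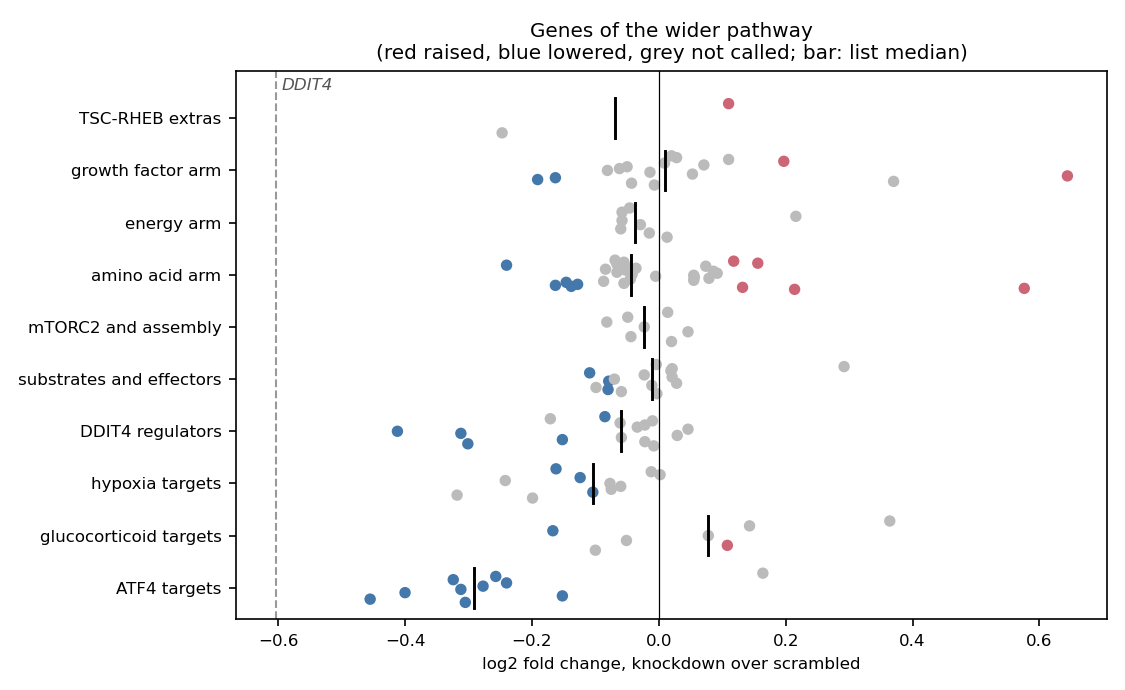
Log2 fold change, knockdown over scrambled, of each tested gene in the 10 lists around the pathway; red points were called raised, blue points lowered and grey points not called, black ticks are list medians, and the dashed line marks DDIT4 at -0.60. The ATF4 targets lie to the left of 0 with a median of -0.29, apart from VLDLR, and the medians of the mTORC1 arms lie within 0.07 of 0.

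The genes with profiles most like that of DDIT4 were found over the 6 summed samples, as the smallest Euclidean distance between log2 CPM values centred on their mean, among 10479 genes that averaged 5 CPM or more. They were TCN1 at a distance of 0.147, IGF1 at 0.156, SNPH at 0.172, ENC1 at 0.182 and DNAJB2 at 0.202. TCN1 encodes a vitamin B12 carrier and went from 26.0 ± 0.328 to 18.3 ± 0.190 CPM. IGF1, a growth factor that signals to mTORC1 through its receptor, went from 37.8 ± 0.477 to 24.2 ± 0.623 CPM. Likeness here rests on 3 samples of each group and mostly on the size of the group difference, so it is a description only.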

How the data were processed

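Counts were made from K562 total RNA by the authors. Per the labels' protocols, a directional kit was used after rRNA depletion. Per the submitters' processing notes, Trim Galore, STAR and featureCounts were used on GRCh38; the sources used here do not give versions, annotation or strand setting. In the deposited table, counts are whole numbers by gene symbol and are not normalized. The labels write both gapmers and siRNA, and gapmers are taken here.

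In a library name, the first number was read as the biological replicate. Technical libraries were summed, giving 3 against 3 samples. After filterByExpr, the sums went into robust quasi-likelihood fits with TMM scaling (edgeR 4.0.16 under R 4.3.3). Adjusted p-values are Benjamini-Hochberg values over all 15678 genes, and genes below 0.05 were called. The SE is the absolute log2 fold change over the root of F. CPM used TMM-scaled totals, and log2 CPM a prior count of 2. DEPTOR's ratio has an exact binomial interval. Coordinates, lengths and GC content (96.4% of tested genes) came from GENCODE 29 and promoter windows from RefSeq.

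The members and lists were chosen with earlier results of these data known. Named genes were all 10 members, PCMTD1, up to 3 called genes per list by smallest p (otherwise the one with the smallest p) and the 5 genes most like DDIT4. Named outside that rule, with values seen, were GFI1B, PKD1, NTHL1, BRICD5 and TBC1D17 for exon overlap, and further list members given for their role. A few genes are not reported here. Alternatives were DESeq2 1.42.0, RLE and upper-quartile scaling, no filter and a filter of 50 counts in 3 samples, a replicate block, libraries entered singly or summed by the second number, a lowess GC correction (span 0.3) alone and with the block, removal of knockdown libraries 3_2 and 3_3, and each replicate left out. The procedure was tested on simulated data that held no GC trend and no deviating libraries, so that test does not cover them.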

Additional observations from a re-analysis of the deposited data

Results flagged for a closer look

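Among 18 sets of 9 libraries, 1 for each tested member and group, 1 held a library that stood apart by Dixon's test. TSC2 in scrambled library 1_3 was 82.8 CPM, the nearest other library of the group was 78.7 CPM, and this gap was 0.503 of the group's range. Chance alone marks about 1 in 20 such sets. That library was also the shallowest, with 19118533 counts. Summed with its technical partners, replicate 1 stood at 77.8 CPM beside 77.1 and 76.6 CPM.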

How the results depend on the processing

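DDIT4, chosen for its fall in these data, kept its direction in all 17 alternatives, between -0.628 and -0.564. Over all genes, 1175 lowered calls became 2036 with libraries entered singly, 2389 summed by the second number, 2426 without knockdown libraries 3_2 and 3_3, 2616 with the GC correction and 623 to 2280 with 1 replicate left out; the 1745 raised calls became 1127 to 2482 with 1 replicate left out. Raised genes were 59.8% of calls, and 47% with the GC correction. Replicate numbers did not pair the samples: deviations of same-numbered samples correlated at 0.0302, 0.0114 and 0.0113. With the replicate block there were 3985 calls, including all 2920, of which 1772 were lowered, and with the GC correction and block 2638 were lowered.

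Of the 8 other members, 1 was called raised without a count filter (DEPTOR, then a ninth), 1 summed by the second number and 1 without libraries 3_2 and 3_3, and 0 to 1 with 1 replicate left out (TSC2 without knockdown replicate 3, otherwise DEPTOR in fits that admitted it through the knockdown group). Lowered were 0 with upper-quartile scaling, 0 without a count filter, 3 with libraries singly, 5 summed by the second number, 3 without libraries 3_2 and 3_3, 5 with the GC correction, 5 with the GC correction and replicate block, and 0 to 3 with 1 replicate left out. Of the 119 pathway genes, raised were 4 in DESeq2 and 2 to 11 with 1 replicate left out. Lowered were 41 singly, 43 summed by the second number, 44 without libraries 3_2 and 3_3, 45 with the GC correction, 46 with the correction and replicate block, and 16 to 39 with 1 replicate left out. The cause of these shifts was not tested.

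MTOR changed sign without knockdown replicate 3 (0.00249) and lay between -0.0252 and that value with 1 replicate left out. AKT1S1, at 0.00, changed sign with a stricter filter (-0.00164), libraries singly (-0.0017), DESeq2 (-9.01e-07), the GC correction (-0.0177, and -0.0177 with the replicate block) and without scrambled replicate 2 (-0.00723) or 3 (-0.00138) or knockdown replicate 1 (-0.0251) or 2 (-0.0031), with a range of -0.0251 to 0.036 when 1 replicate was left out. DEPTOR was below the depth at which a change can be read with precision.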
